A study of Mus musculus with 5 samples.

Results

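The proteasome genes described here are the 48 genes whose single symbol on the array platform is Psm followed by a letter from a to g and a number, out of 19937 genes measured. Where a gene had several probe sets, the one that was brightest on average was used. They cover 12 classes of subunit or helper, and all 48 entered the test because no filter on dim genes was applied. Psmc3ip and Psme3ip1, whose symbols begin in the same way, did not meet the rule, and a probe set shared by Psme2 and its copy Psme2b was left out.

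RNA came from CD4 T cells of the colon lamina propria, sorted as CD45+CD3+CD4+ with low CD44, a surface protein that rises on activation. Conditional mice (CD4cre/Cnb1flox, 3 arrays) carried a floxed allele of Cnb1, the gene for the regulatory subunit of the phosphatase calcineurin, and a Cre recombinase under CD4 control, which acts from T cell development in the thymus onward. Control mice (control WT; CD4neg/Cnb1flox, 2 arrays) carried the floxed allele without Cre, so both groups shared it. The series' design text speaks of 3 experiments with 3 to 5 mice in each group, but not of which mice stood behind which array, so p-values measure only the scatter among these arrays, which may be partly technical. Age is not given in the sources used here.

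The proteasome is the barrel-shaped protease that degrades proteins tagged with ubiquitin. Its core particle is built of alpha rings, which gate the entrance, around beta rings, in which the subunits encoded by Psmb5, Psmb6 and Psmb7 cut peptide bonds. A regulatory cap of ATPases and a lid recognises, unfolds and feeds in the tagged proteins. Interferon-gamma induces the replacement subunits Psmb8, Psmb9 and Psmb10, which form the immunoproteasome, and the activator pair Psme1 and Psme2, and these favour peptides suited to class I antigen presentation. Lymphocytes carry much immunoproteasome even at rest.

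Promoters are shown for 4 exchangeable catalytic genes, Psmb8 and Psmb9 with Psmb5 and Psmb6, which they replace. The pair of Psmb10 and Psmb7, also set side by side further on, is not shown. The sequences are the 250 bases before the start of the gene, from RefSeq on GRCm38.p6, read on the strand of the gene. Matches to the searched motifs are in capitals.
Psmb8, chr17:34197945-34198194, plus strand: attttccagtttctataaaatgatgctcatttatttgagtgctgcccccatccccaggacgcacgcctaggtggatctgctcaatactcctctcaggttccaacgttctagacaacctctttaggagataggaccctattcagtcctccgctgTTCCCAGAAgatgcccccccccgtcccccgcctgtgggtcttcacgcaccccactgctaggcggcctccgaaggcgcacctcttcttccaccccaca
Psmb9, chr17:34187331-34187580, minus strand: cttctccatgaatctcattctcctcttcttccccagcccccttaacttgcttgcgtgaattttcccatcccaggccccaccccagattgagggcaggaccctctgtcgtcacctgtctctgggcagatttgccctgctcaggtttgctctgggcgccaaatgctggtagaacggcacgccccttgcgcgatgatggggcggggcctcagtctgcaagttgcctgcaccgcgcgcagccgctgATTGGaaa
Psmb5, chr14:54617996-54618245, minus strand: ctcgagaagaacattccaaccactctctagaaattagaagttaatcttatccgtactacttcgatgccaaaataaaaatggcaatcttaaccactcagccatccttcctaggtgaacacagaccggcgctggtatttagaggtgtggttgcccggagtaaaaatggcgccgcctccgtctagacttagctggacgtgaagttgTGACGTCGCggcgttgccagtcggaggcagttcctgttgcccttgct
Psmb6, chr11:70525107-70525356, plus strand: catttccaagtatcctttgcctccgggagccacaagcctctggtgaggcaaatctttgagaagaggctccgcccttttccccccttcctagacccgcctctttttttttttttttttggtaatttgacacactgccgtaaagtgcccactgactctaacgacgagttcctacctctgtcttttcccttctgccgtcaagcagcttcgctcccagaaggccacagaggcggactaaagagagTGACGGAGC
The capitals are a match to the STAT site GAS at -97 from the start in Psmb8, a CCAAT match on the other strand at -8 in Psmb9, and antioxidant response element matches at -47 in Psmb5 and -9 in Psmb6.

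Windows of 300 bases (250 before and 50 after the start) were found for 40 of the 48 genes and searched on both strands. The interferon-stimulated response element, GAAA and GAAA with any pair of bases between them, stood in 5 of the 40 (12.5%, against 3.99% of 27025 genes with a window), namely Psmb3, Psmd4, Psmd9, Psmg4 and Psme1, the last as TTTCGCTTTC at 9 bases after the start. GAS, written TTCNNNGAA, stood in 3 (7.5%, against 9.55%), Psmb8, Psmd2 and Psmg1. The antioxidant response element TGACNNNGC, through which the factors Nfe2l1 and Nfe2l2 act on proteasome genes, stood in 6 (15%, against 14%), and CCAAT in 14 (35%, against 41.1%). Of the 5 inducible genes Psmb8, Psmb9, Psmb10, Psme1 and Psme2, 1 held the interferon-stimulated response element and 1 held GAS. The window of Psmb10 held 0 matches to each of the motifs. The window of Psmb9 overlaps that of the divergent gene Tap1, a peptide transporter of class I presentation, by 275 bases. A match is a run of letters and not a shown binding site.

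Levels are log2 signals, comparable between arrays for a gene but not between genes. On control replicate 1 all 13 measured T cell markers were at their lowest of the 5 arrays. Their mean log2 level was 8.61 there, 11.34 on control replicate 2 and 10.98 to 11.24 on conditional arrays. The 14 colon epithelium markers had means of 9.64, 8.24 and 7.30 to 7.73 on the same arrays, and the 8 of stroma and endothelium 11.09, 9.58 and 8.88 to 9.80. The 11 macrophage and dendritic cell markers, all with a higher conditional mean, were at 6.67, 6.76 and 7.46 to 8.36, the 7 of granulocytes and mast cells at 5.86, 5.79 and 6.65 to 6.76, and the 7 of B cells at 9.65, 9.29 and 8.53 to 9.40. Their part in the differences between the groups was not tested. In such bulk samples fewer cells of a type and less RNA per cell cannot be told apart. Ppp3r1, the targeted gene, had overlapping levels of 8.64, 8.83 and 8.77 on conditional and 8.99 and 8.60 on control arrays, and whether its probe set lies in the deleted part is not given in the sources used here.

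Proteasome genes lay slightly higher in conditional than in control cells across most classes, without any single gene passing the test. Of the 48 genes, 44 (91.7%) had a higher mean in conditional cells, against 55.9% of all genes. Their median difference was 0.29 on the log2 scale, 1.22-fold, against 0.029 over all genes and 0.046 over the genes above the median level. In limma 0 of the 48 passed an adjusted p of 0.05, which 0.416% of all genes did (0.371% higher and 0.0451% lower). At an unadjusted p of 0.05 in limma, 14 were higher (29.2%, against 8.59% of all genes) and 2 lower (4.17%, against 5.91%). All conditional values lay above both control values for 25 genes (52.1%, against 17.4% of all genes) and below both for 2 (4.17%, against 13.1%). Of the 48, 44 lay above the median level of all genes. Among all genes above that level, 54.8% had a higher conditional mean, and 25.2% were apart upward and 16.2% downward. At an unadjusted p of 0.05 in limma, 14.7% of those genes were higher and 8.28% lower.

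The shift was present against each control array taken alone. Against control replicate 1 the conditional mean was higher for 42 of 48 genes (61.3% of all genes), with a median difference of 0.23. Against control replicate 2 it was higher for 37 (46.1% of all genes), with a median of 0.27. Among all genes above the median level it was higher for 55.3% against control replicate 1 and 53.6% against control replicate 2. All 3 conditional arrays lay above control replicate 1 for 35 genes (44.7% of all genes) and above control replicate 2 for 33 (28.2% of all genes). Among the 9969 genes above the median level they did so for 4647 and 4103. Both comparisons share the conditional arrays. Control replicate 1 was the highest array for 3 members and for 26.8% of all genes.

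The size of the shift moved under cyclic loess. After cyclic loess normalization the median was 0.14, with 37 of 48 genes higher (all genes -0.0084), and with arrays centred on their medians it was 0.38, where all genes moved to 0.12. Centring moves the difference of every gene by the same amount, so it left the shift relative to all genes unchanged. Class medians moved from 0.30 to 0.15 in the constitutive catalytic genes, 0.35 to 0.22 in the ATPase ring, 0.37 to 0.23 in the other base genes, 0.27 to 0.15 in the lid and from 0.34 to 0.16 in the activators under cyclic loess. Which members passed moved with the control array left out. Without control replicate 1, 4 members passed an adjusted p of 0.05 in limma, all higher, namely Psmb5, Psmd1, Psmd7 and Psmd9 (3.34% of all genes were higher and 2.77% lower). Without control replicate 2, 9 passed (11.0% of all genes higher and 16.5% lower): Psma3, Psma4, Psmb8, Psmb9, Psmd10, Psme1, Psme2 and Psme3 were higher and Psmg1 lower. With 1 control array left, it is assumed to vary as the conditional arrays do. Psmd7 and Psma3 were named after their values were seen. Leaving out any 1 conditional array gave 0 members and 0 of all genes past the threshold in limma. At an unadjusted p of 0.05 in limma, 2 to 5 members were then higher and 0 to 2 lower. The share of all genes at that p was not counted for these fits, so these counts cannot be set against it.

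**Figure D1:**
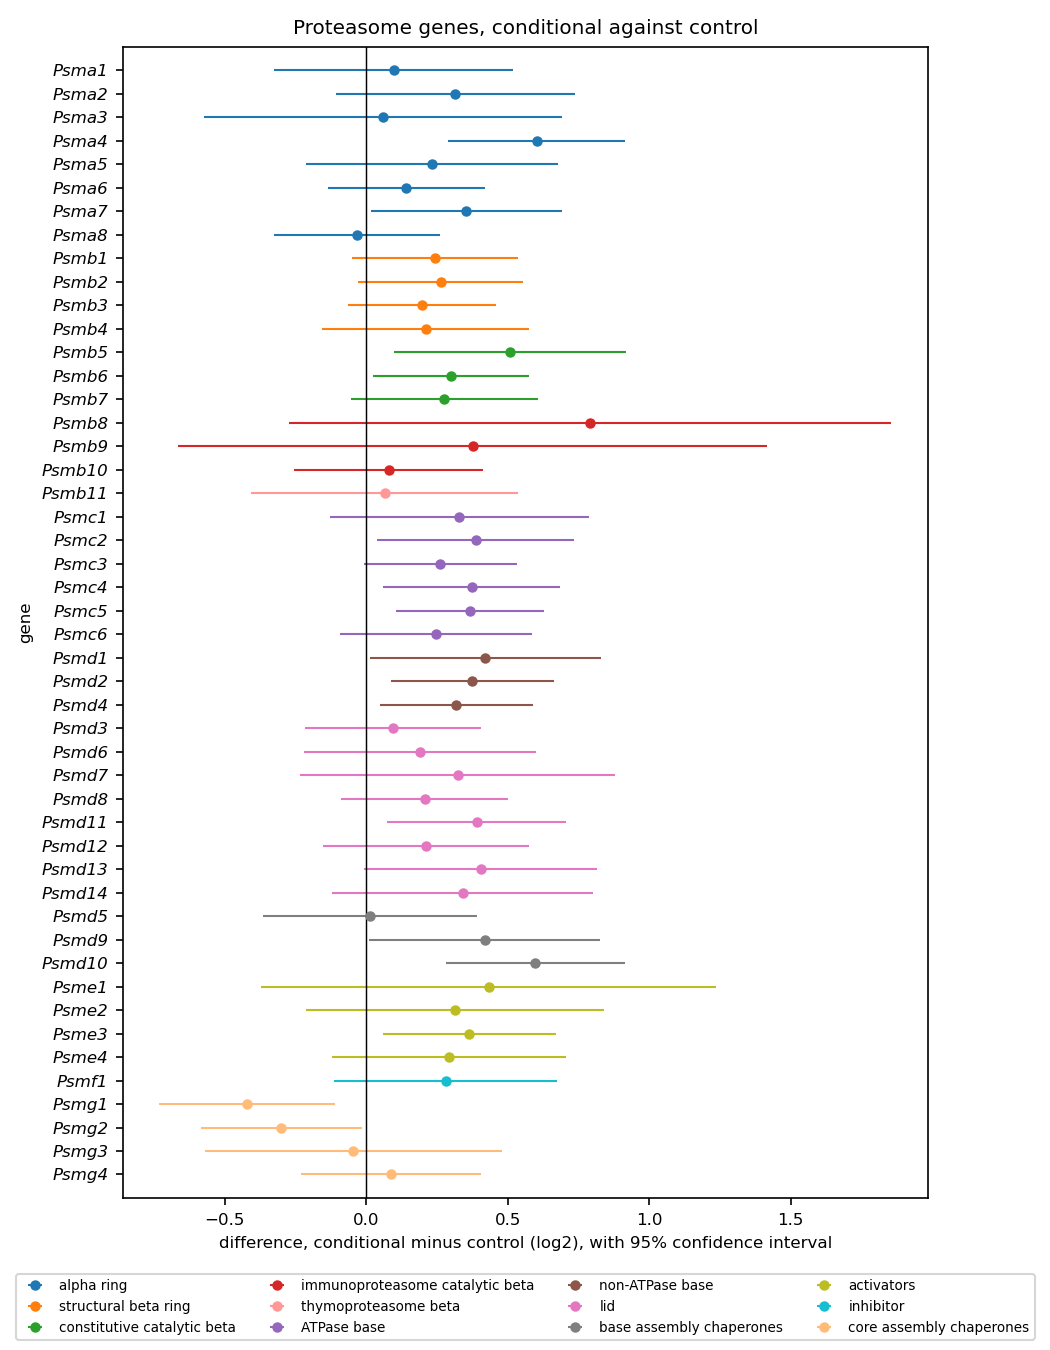
Difference between conditional (3 arrays) and control (2 arrays) in log2 signal for each of the 48 proteasome genes, coloured by class, with the 95% confidence interval from limma as a bar. Most points lie to the right of 0, the intervals of Psmb8, Psmb9 and Psme1 are the widest, and Psmg1 and Psmg2 lie to the left.

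In the alpha ring, 7 of 8 genes had a higher mean in conditional cells, with a median difference of 0.19 (0.085, with 4 of 8 higher, after cyclic loess). Psma4 stood at log2 levels of 9.57, 9.78 and 9.78 on conditional and 9.06 and 9.16 on control arrays. Its groups were fully apart, with a difference of 0.60 ± 0.123 (SE, limma, adjusted p = 0.133), the smallest adjusted p of any member. Psma7 was also apart, at 8.39, 8.55 and 8.65 against 8.09 and 8.26, a difference of 0.35 ± 0.132 (SE, limma, adjusted p = 0.327). Psma8, the testis form of an alpha subunit, had overlapping values of 5.45, 5.30 and 5.48 against 5.39 and 5.50 and differed by -0.034 ± 0.115 (SE).

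The structural beta genes Psmb1 to Psmb4, which do not cut, were each higher on all conditional arrays than on both control arrays, as were 17.4% of all genes. Their differences ran from 0.20 to 0.26. Their median of 0.23 was 0.039 after cyclic loess, with 3 of 4 above 0. Psmb2 stood at 11.34, 11.41 and 11.39 on conditional and 11.22 and 11.02 on control arrays, a difference of 0.26 ± 0.114 (SE, limma, adjusted p = 0.388). Psmb3 stood at 12.20, 12.14 and 12.23 against 11.95 and 12.04, a difference of 0.20 ± 0.102 (SE, limma, adjusted p = 0.464), which was -0.034 after cyclic loess.

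The constitutive catalytic genes all had groups apart upward as well (17.4% of all genes). Psmb5, whose subunit cuts after hydrophobic residues, stood at 11.39, 11.35 and 11.49 on conditional and 11.11 and 10.69 on control arrays. Every conditional value lay above both controls, by 0.29 over control replicate 1 and 0.72 over control replicate 2 in the mean, and limma put the difference at 0.51 ± 0.161 (SE, adjusted p = 0.262). Psmb6, for the caspase-like subunit, stood at 10.38, 10.49 and 10.44 against 10.07 and 10.20, a difference of 0.30 ± 0.108 (SE, limma, adjusted p = 0.313). Psmb7, for the trypsin-like subunit, stood at 9.46, 9.68 and 9.66 against 9.41 and 9.24, a difference of 0.28 ± 0.130 (SE, limma, adjusted p = 0.423). The margin between the groups of Psmb7 was narrower than the spread among its conditional arrays.

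The immunoproteasome genes had another pattern, with most of the difference of Psmb8 and Psmb9 lying against one control array. Psmb8, which replaces Psmb5, stood at 9.76, 9.81 and 9.79 on conditional and 8.29 and 9.71 on control arrays. Control replicate 1 was far below the other arrays, and control replicate 2 just below the conditional ones. The difference of 0.79 ± 0.417 (SE, limma, adjusted p = 0.466) split into 1.50 over control replicate 1 and 0.082 over control replicate 2. Psmb9, which replaces Psmb6, stood at 9.42, 9.49 and 9.31 on conditional and 8.34 and 9.72 on control arrays, so its conditional values lay between the controls. Its difference of 0.38 ± 0.408 (SE, limma, adjusted p = 0.751) split into 1.06 and -0.31. Psmb10, which replaces Psmb7, stood at 9.60, 9.75 and 9.80 against 9.52 and 9.76, groups that overlap, with a difference of 0.079 ± 0.131 (SE, limma, adjusted p = 0.860) and of -0.064 after cyclic loess. The median over these 3 genes was 0.38 against both controls, 1.06 against control replicate 1 and -0.040 against control replicate 2. With the mean of the T cell markers as a covariate it was -0.026. That mean was low on control replicate 1 alone (8.61, against 10.98 to 11.34 on the other arrays). The fit is therefore close to leaving that array out and is no separate adjustment for T cell content.

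The gap between a replacement gene and the gene it replaces can be followed within each array, although its offset from 0 has no meaning because it compares probe sets. The log2 gap of Psmb8 over Psmb5 was -1.63, -1.53 and -1.70 against -2.82 and -0.98, in the same order of arrays. That of Psmb9 over Psmb6 was -0.96, -1.01 and -1.13 against -1.73 and -0.49. In both pairs the conditional gaps lay between the controls. For Psmb10 over Psmb7 the gaps were 0.15, 0.061 and 0.13 against 0.11 and 0.52. Against control replicate 2 alone, the gaps of all 3 pairs were lower on every conditional array. Against control replicate 1 alone, those of Psmb8 and Psmb9 were higher on every conditional array and that of Psmb10 was mixed. The conditional means of Psmb5, Psmb6 and Psmb7 were themselves 0.72, 0.23 and 0.36 above control replicate 2. No test of the gaps is given.

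**Figure D2:**
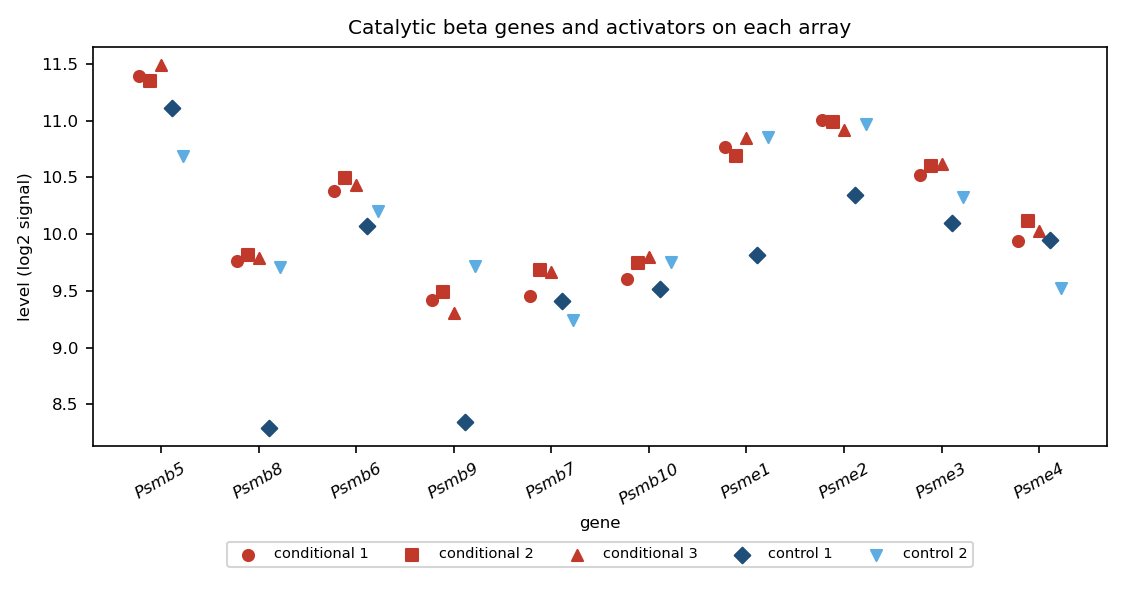
Log2 signal of the constitutive catalytic genes, the immunoproteasome genes and the activators on each of the 5 arrays, red for conditional and blue for control. Control replicate 1 lies below the other arrays in Psmb8, Psmb9, Psme1 and Psme2, whereas in Psmb5 both controls lie below the conditional arrays.

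Among the activators, Psme1 and Psme2 encode the subunits of an interferon-inducible ring that opens the core. As in Psmb8 and Psmb9, their difference lay mostly against control replicate 1. Unlike those of Psmb8, their conditional values did not all lie above control replicate 2. Psme1 stood at 10.77, 10.69 and 10.85 on conditional and 9.82 and 10.85 on control arrays, a difference of 0.43 ± 0.314 (SE, limma, adjusted p = 0.598). Psme2 stood at 11.01, 10.99 and 10.92 against 10.34 and 10.97, a difference of 0.31 ± 0.206 (SE, limma, adjusted p = 0.557). Over control replicate 2 alone they differed by -0.085 and -0.0016. Psme3, a nuclear activator, was apart from both controls, at 10.52, 10.60 and 10.62 against 10.10 and 10.33, a difference of 0.36 ± 0.120 (SE, limma, adjusted p = 0.276). Psme4, a large single-chain nuclear activator, stood at 9.94, 10.11 and 10.03 against 9.95 and 9.53, overlapping, with a difference of 0.29 ± 0.161 (SE, limma, adjusted p = 0.484).

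Taking Psmb8, Psmb9, Psmb10, Psme1 and Psme2 as the interferon-inducible set, all 5 were at their lowest on control replicate 1, as were 38.8% of all genes. Of the 17 cap genes, 14 were at their lowest on control replicate 2, as were 16.7% of all genes, and 3 on control replicate 1. Among the 9969 genes above the median level, 3670 were lowest on control replicate 1 and 2572 on control replicate 2. The 15 constitutive core genes were split, with 7 at their lowest on each control array. The median difference of the inducible set was 0.95 over control replicate 1 and -0.040 over control replicate 2. For the cap genes these medians were 0.23 and 0.42, and for the constitutive core genes 0.24 and 0.27.

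**Figure D3:**
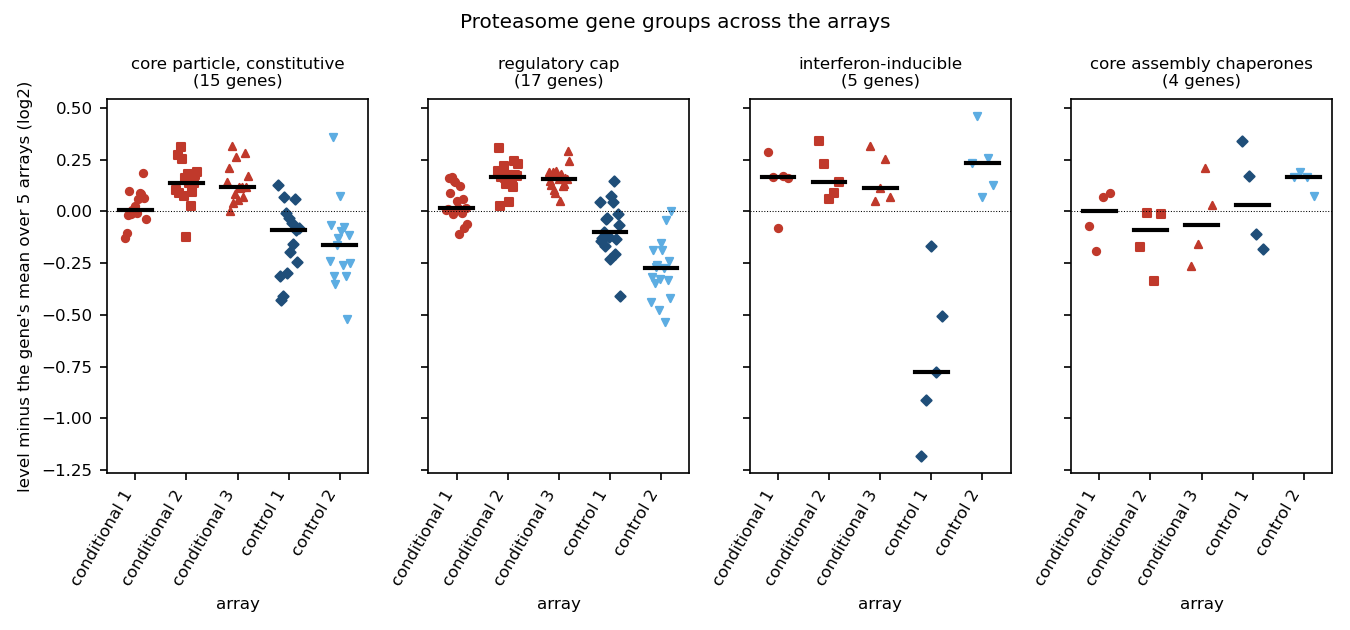
Level of each gene minus its own mean over the 5 arrays (log2), for the constitutive core particle, the regulatory cap, the interferon-inducible set and the core assembly chaperones, with a black bar at the median of each array. The inducible set is low on control replicate 1 alone, and the medians of the core and cap genes are low on both control arrays.

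In the regulatory cap all 17 genes had a higher mean in conditional cells (16 after cyclic loess), with a median of 0.33 (0.21 after cyclic loess). Groups were apart upward for 11 of them (64.7%, against 17.4% of all genes). In the ATPase ring, which unfolds substrates, differences ran from 0.25 for Psmc6 to 0.39 for Psmc2, and all 6 genes were lowest on control replicate 2. Psmc5 stood at 8.38, 8.38 and 8.31 on conditional and 8.04 and 7.94 on control arrays, a difference of 0.37 ± 0.102 (SE, limma, adjusted p = 0.217). Psmc2 stood at 8.28, 8.57 and 8.41 against 8.12 and 7.95 (limma, adjusted p = 0.305) and Psmc4 at 10.01, 10.09 and 10.12 against 9.83 and 9.58 (limma, adjusted p = 0.276). All 3 of these had groups apart.

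The base genes that are not ATPases were all apart upward (17.4% of all genes). Psmd1 and Psmd2 encode its large scaffold subunits. Psmd1 stood at 10.71, 10.73 and 10.76 on conditional and 10.54 and 10.09 on control arrays, a difference of 0.42 ± 0.160 (SE, limma, adjusted p = 0.334), which was 0.20 over control replicate 1 and 0.64 over control replicate 2. Psmd2 stood at 10.55, 10.55 and 10.58 against 10.29 and 10.09, a difference of 0.37 ± 0.113 (SE, limma, adjusted p = 0.241), and its margin was wider than the spread among its conditional arrays. Psmd4, which encodes a ubiquitin receptor, stood at 9.04, 9.16 and 9.15 against 8.76 and 8.84, a difference of 0.32 ± 0.106 (SE, limma, adjusted p = 0.279).

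In the lid all 8 genes were higher in the mean and 3 were apart upward (37.5%, against 17.4% of all genes). Psmd13 stood at 9.62, 9.77 and 9.89 on conditional and 9.53 and 9.18 on control arrays, a difference of 0.40 ± 0.161 (SE, limma, adjusted p = 0.353), which was 0.23 over control replicate 1 and 0.58 over control replicate 2. Psmd11 stood at 9.81, 9.99 and 9.91 against 9.61 and 9.42, a difference of 0.39 ± 0.123 (SE, limma, adjusted p = 0.262). Psmd3 overlapped, at 9.35, 9.38 and 9.38 against 9.41 and 9.15, with a difference of 0.093 ± 0.122 (SE), which was -0.025 after cyclic loess and -0.037 over control replicate 1 alone.

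Helpers of assembly are grouped by the part they build. Of the chaperones of the base, Psmd10, also called gankyrin, stood at 8.55, 8.79 and 8.78 on conditional and 8.12 and 8.09 on control arrays, fully apart, a difference of 0.60 ± 0.124 (SE, limma, adjusted p = 0.138). It was 0.58 over control replicate 1 and 0.61 over control replicate 2. Psmd9 was apart too, at 7.97, 7.92 and 8.05 against 7.78 and 7.35, a difference of 0.42 ± 0.160 (SE, limma, adjusted p = 0.337), which was 0.20 over control replicate 1 and 0.63 over control replicate 2. Psmd5 overlapped and differed by 0.013 ± 0.148 (SE), which was -0.040 after cyclic loess.

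Of the 4 chaperones of the core, 3 had a lower mean in conditional cells and 2 were apart downward (50%, against 13.1% of all genes). After median centring 2 of 4 were above 0, as were 2 over control replicate 1 alone and 0 over control replicate 2 alone. Their medians over these single controls were -0.099 and -0.25. The class median was -0.17, and it was below 0 after cyclic loess (-0.18), median centring (-0.080) and repeated quantile normalization (-0.12). Psmg1 and Psmg2, which pair to guide the alpha ring, were the 2 members with groups apart downward. Psmg1 stood at 7.23, 7.13 and 7.04 on conditional and 7.64 and 7.47 on control arrays, a difference of -0.42 ± 0.122 (SE, limma, adjusted p = 0.228). Psmg2 stood at 8.16, 8.34 and 8.19 against 8.52 and 8.54, a difference of -0.30 ± 0.111 (SE, limma, adjusted p = 0.324). Psmg3 and Psmg4, which form the other chaperone pair, differed by -0.046 ± 0.205 (SE) and 0.088 ± 0.125 (SE) with overlapping groups.

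Psmf1, the inhibitor gene, stood at 9.62, 9.84 and 9.96 on conditional and 9.40 and 9.65 on control arrays, a difference of 0.28 ± 0.154 (SE, limma, adjusted p = 0.484) with overlapping groups. Psmb11, for the catalytic subunit of the thymic cortex, was read at 7.14, 6.79 and 7.14 against 6.77 and 7.15, with a difference of 0.065 ± 0.184 (SE). Of the 5 genes with several probe sets, Psma5, Psmb3, Psmc1 and Psmd2 had differences of the same sign in each. The 3 probe sets of Psma3 differed by 0.21, -0.041 and 0.059, the last being the one used.

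Genes that act beside the proteasome without a Psm symbol were higher in the mean for 11 of 15 measured, with a median of 0.23, 0.13 over control replicate 1 and 0.29 over control replicate 2. The lowest difference, -0.32 ± 0.259 (SE), was that of Ubqln1, a ubiquitin shuttle named after its values were seen. In limma 0 passed the adjusted threshold, and 4 were higher and 0 lower at an unadjusted p of 0.05, against 8.59% and 5.91% of all genes. 8 genes had groups apart upward (53.3%, against 17.4% of all genes) and 1, Ubqln2, downward (6.67%, against 13.1% of all genes). Ubqln2 differed by -0.11 ± 0.0990 (SE) and was also named after its values were seen. Akirin2, which helps bring proteasomes into the nucleus, stood at 9.80, 9.78 and 9.91 on conditional and 9.47 and 9.51 on control arrays, a difference of 0.34 ± 0.104 (SE, limma, adjusted p = 0.250). Pomp, the maturation factor of the core, stood at 9.03, 9.12 and 9.12 against 8.74 and 8.80, a difference of 0.32 ± 0.102 (SE, limma, adjusted p = 0.266). Ube3c, a ubiquitin ligase found at the proteasome, stood at 9.59, 9.73 and 9.68 against 9.42 and 9.13, a difference of 0.39 ± 0.134 (SE, limma, adjusted p = 0.288). These 3, the smallest p of the list, had groups apart.

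Of 9 listed genes of ubiquitin, its activation and the extraction of tagged proteins, 3 were measured, and all had groups apart upward (17.4% of all genes). Only Uba6 among these is a gene of activation. In limma 0 passed the adjusted threshold and 2 were higher at an unadjusted p of 0.05 (8.59% of all genes). Uba6, a ubiquitin-activating enzyme, stood at 9.59, 9.85 and 9.63 on conditional and 9.06 and 9.15 on control arrays, a difference of 0.59 ± 0.126 (SE, limma, adjusted p = 0.145). Nploc4, an adaptor of the extraction ATPase Vcp, differed by 0.61 ± 0.166 (SE, limma, adjusted p = 0.205) and its partner Ufd1 by 0.21 ± 0.118 (SE, limma, adjusted p = 0.484).

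Genes of class I peptide loading were higher in the mean for 9 of 10 measured, with a median of 0.21. The median was 0.30 over control replicate 1, with 7 of 10 above, and 0.13 over control replicate 2, with 9 above. In limma 0 passed, also at an unadjusted p of 0.05. Tap1 stood at 10.85, 10.99 and 10.95 on conditional and 9.18 and 10.89 on control arrays. Nlrc5, the transactivator of class I genes, stood at 11.67, 11.67 and 11.79 against 8.78 and 11.58, and Tapbpl, a peptide editor, at 9.10, 9.26 and 9.02 against 8.27 and 9.01. These 3 were low on control replicate 1 alone, with differences of 0.89 ± 0.501, 1.53 ± 0.807 and 0.49 ± 0.241 (SE). Over the whole list 6 of 10 genes were lowest on control replicate 1 (38.8% of all genes) and 4 on control replicate 2 (16.7% of all genes). Ifng, of the interferon-gamma axis, stood at 10.43, 10.68 and 10.80 against 6.97 and 10.48.

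Of 12 interferon-gamma axis genes measured, 9 had a higher mean in conditional cells (55.9% of all genes) and 3 a lower one. At an adjusted p of 0.05 in limma, 2 were higher and 0 lower (0.371% and 0.0451% of all genes). At an unadjusted p of 0.05 in limma 4 were higher (33.3%, against 8.59% of all genes) and 1 lower (8.33%, against 5.91%). The median difference was 0.16, 0.64 over control replicate 1 and 0.0038 over control replicate 2, where 6 genes were above and 6 below. Cxcl9, a chemokine gene, stood at 8.73, 8.82 and 8.62 on conditional and 7.15 and 7.14 on control arrays, a difference of 1.58 ± 0.113 (SE, limma, adjusted p = 0.0279). Gbp3, a guanylate-binding protein gene, stood at 9.87, 9.90 and 9.68 against 8.60 and 8.71, a difference of 1.16 ± 0.122 (SE, limma, adjusted p = 0.0496). Both were chosen by their small p, and 8 of the 12 genes of the list were lowest on control replicate 1, as were 38.8% of all genes. Gbp3 lost the threshold under 13 of 17 alternatives (limma, adjusted p from 0.00320 to 0.359) and Cxcl9 under 5 (limma, adjusted p from 0.00172 to 0.267), and leaving out any 1 conditional array was among them for both. Ifngr1, for the ligand-binding receptor chain, had groups apart and differed by 0.71 ± 0.106 (SE, limma, adjusted p = 0.0809). Ifngr2, for the other receptor chain, was apart downward, at 9.99, 9.98 and 9.88 against 10.51 and 11.11, a difference of -0.86 ± 0.201 (SE, limma, adjusted p = 0.166), and was named after its values were seen.

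**Figure D4:**
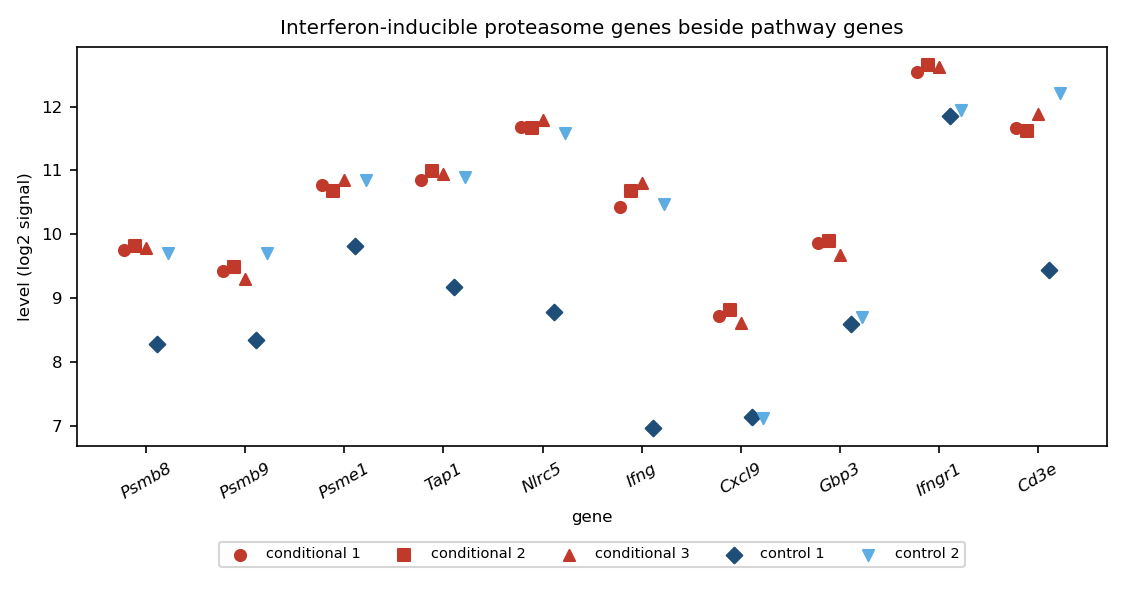
Log2 signal of interferon-inducible proteasome genes, genes of class I loading and of the interferon-gamma axis, and the T cell receptor complex gene Cd3e on each of the 5 arrays, red for conditional and blue for control. Psmb8, Psmb9, Psme1, Tap1, Nlrc5, Ifng and Cd3e are low on control replicate 1 alone, whereas Cxcl9, Gbp3 and Ifngr1, chosen by their small p, are low on both control arrays.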

How the data were processed

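The authors deposited log2 signals, which the submitters' processing notes tie to RMA and the oligo package. RMA subtracts background, normalizes arrays together by quantiles and summarises probes, so global shifts are removed and dim differences shrink. Array medians lay between 7.12 and 7.23. Of 34760 probe sets, 21640 had 1 gene symbol in the platform annotation, 1321 several and 11799 none, which gave 19937 genes. Groups came from genotype labels, and replicate numbers from titles. The difference was fitted in limma (version 3.58.1, R 4.3.3; lmFit and eBayes, no covariate, 3 residual and 2.10 prior degrees of freedom) and adjusted by Benjamini-Hochberg over all genes at 0.05. Standard errors and 95% intervals are limma's. The fit was tested on simulated arrays with planted differences larger than that of any proteasome gene and without a deviating array. That test therefore does not bear on differences as small as those of the proteasome genes. The small number of arrays limits precision.

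Members, classes and lists were chosen with earlier results of these data known. Named genes are the exchangeable catalytic genes, Psmb11, the activators, Psmf1, the highest and lowest difference in other classes, members at an unadjusted p under 0.05, and in each of 4 pathway lists the 3 genes with the smallest p. Alternatives were other normalizations, dim-gene filters, probe-set rules and variance priors, array weights, a replicate block, a T cell marker covariate and leaving out each array.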

Additional observations from a re-analysis of the deposited data

How the results depend on the processing

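The count of all genes past the threshold in limma, 83, was 48 after repeated quantile normalization, 55 after cyclic loess, 13 with array weights, 1584 with the T cell marker mean as a covariate, and 0 to 5474 when 1 array was left out. Of the proteasome genes 0 passed, 4 with that covariate, 0 to 9 when 1 array was left out, and 0 under the other alternatives run. Their median difference of 0.29 was 0.38 after median centring, which moves all genes alike, 0.14 after cyclic loess and 0.23 to 0.33 when 1 array was left out. The immunoproteasome median of 0.38 was -0.040 to 1.06 when 1 array was left out and -0.026 with the covariate. The T cell marker mean was low on control replicate 1 alone, so the covariate fit is close to leaving that array out. Of 761 values of 45 named genes under 17 alternatives, 697 kept direction and side of the threshold, 18 lost the threshold, 23 gained it and 23 turned sign. Many of the 697 could not have turned sign. The dim-gene filters and variance priors leave each difference as it was, and the probe-set rules change only genes with several probe sets. The 33 named proteasome genes were short of the threshold at the outset, so for them keeping the side meant staying short of it. The sign turned for Psma8 after median centring (0.059) and with array weights (0.0037), for Psmb10 (-0.064), Psmb3 (-0.034), Psmd3 (-0.025) and Psmd5 (-0.040) after cyclic loess, and for Psmb9 (-0.18), Psmb10 (-0.026), Psmb11 (-0.091) and Psmg4 (-0.016) with the covariate. When 1 array was left out, differences spanned -0.089 to 0.021 for Psma8, -0.31 to 1.06 for Psmb9, -0.040 to 0.20 for Psmb10, -0.12 to 0.25 for Psmb11, -0.037 to 0.22 for Psmd3, -0.10 to 0.13 for Psmd5, -0.085 to 0.95 for Psme1, -0.0016 to 0.63 for Psme2 and -0.041 to 0.22 for Psmg4. The cause was not tested. With the replicate number as a block, 69 genes and 0 proteasome genes passed in limma, the proteasome median was 0.27, the immunoproteasome median 0.42 and Psmd5 at -0.025. Conditional replicate 3 has no partner there and is alone in its block. The differences of this fit are therefore those of leaving that array out, and they are no separate check. Deviations from the group means correlated at 0.40 between the samples numbered 1 and at -0.29 between those numbered 2. Conditional replicate 3 correlated at 0.58 with control replicate 2. With 2 control arrays, each correlation with control replicate 2 is the negative of that with control replicate 1. These values therefore cannot decide whether samples are paired, and the labels do not say what a number marks. The dim-gene filters left 47 and 44 of the 48 genes.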
